A study of Mus musculus with 6 samples.

Results

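The genes described here encode the proteins that carry an interferon signal from the cell surface to DNA: the receptor chains Ifnar1 and Ifnar2, the kinases Jak1 and Tyk2, the transcription factor subunits Stat2 and Irf9, and the interferon regulatory factors Irf1, Irf3 and Irf7. They were chosen by name, as the upstream components of interferon signaling, and all 9 were found among the 56792 gene rows of the count table. RNA was sequenced from wild-type C2C12, an immortal line of mouse myoblasts that can be driven to form muscle fibers in culture. All cells were differentiated for 4 days in medium with 2% horse serum, either without drug (untreated, 3 libraries) or with 1 µM lenvatinib, a cancer drug that blocks receptor tyrosine kinases of the VEGF and FGF families among others (3 libraries). The labels mention no interferon treatment, and all libraries come from a single cell line. Whether each library came from its own culture is not stated in the labels. The p-values therefore reflect how much these particular libraries vary, which could be technical variation. They name no solvent control either. Of the muscle markers checked, all 10 had enough counts to be tested, among them Myog (856 ± 10.2 CPM untreated and 1036 ± 14.1 CPM with lenvatinib, SD, n = 3) and Des, the intermediate filament of muscle (3364 ± 83.3 and 2949 ± 55.8 CPM).

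As background, type I interferons bind a receptor built of IFNAR1 and IFNAR2. The kinase TYK2 sits on IFNAR1 and JAK1 on IFNAR2, and both phosphorylate STAT proteins, STAT2 among them. Phosphorylated STAT2 joins IRF9 within the factor ISGF3, which binds interferon-stimulated response elements (ISRE) in the promoters of interferon-stimulated genes. IRF3 and IRF7 act earlier, switching on the interferon genes themselves once RNA or DNA sensors are triggered, and IRF7 is itself an interferon-stimulated gene. IRF1 is induced mainly by interferon gamma, through promoter elements called gamma-activated sequences (GAS).

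Libraries held 24566768 to 32406563 counts. Levels are given as CPM, counts scaled to the library's TMM-adjusted total, and log2 fold changes as lenvatinib over untreated, each with its SE from edgeR. A gene was called when its Benjamini-Hochberg adjusted p over the 14989 rows tested was under 0.05.

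The question was whether the transcripts of the interferon signaling chain differed between lenvatinib-treated and untreated muscle cells. Irf7 fell to 50.2% of its untreated mean, and no other of the 8 genes tested passed the test. The receptor, kinase, Stat2, Irf1 and Irf3 transcripts lay between -0.13 and 0.06 on the log2 scale. Irf9 had too few counts for a test. The 1 called gene of 8 stands beside a background of 28.2% of all tested rows that were called (13.3% higher and 14.9% lower), and 1.85% of tested rows were, like Irf7, called lower and at least 2-fold lower. The median log2 fold change of the 8 was -0.07 beside 0.003 over all tested rows. In bulk RNA, fewer cells that express a gene and less RNA per cell cannot be told apart.

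**Figure D1:**
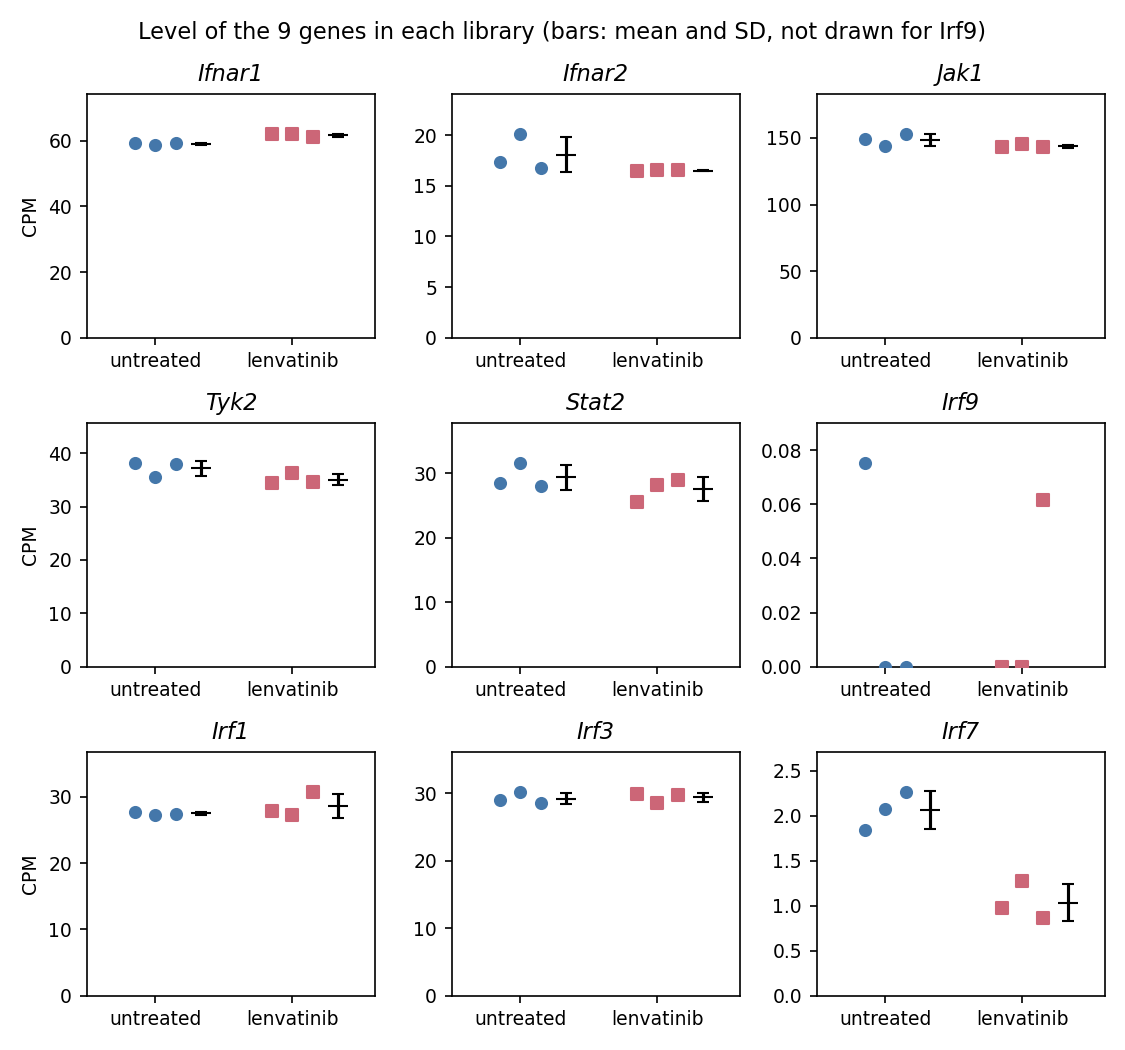
CPM of each of the 9 genes (vertical axes, each from 0) in the 3 untreated libraries (circles) and the 3 lenvatinib libraries (squares), with the mean and SD beside the points except for Irf9. Irf7 is the gene whose lenvatinib points, 0.865 to 1.27 CPM, sit far below its untreated points, 1.84 to 2.26 CPM.

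Irf7 encodes the factor that amplifies interferon production. Its row, at chromosome 7 from 140842619 to 140846394 in the positions of the deposited table, held 49, 53 and 65 counts without the drug. With lenvatinib it held 24, 31 and 28 counts. In CPM these were 1.84, 2.08 and 2.26 in untreated and 0.970, 1.27 and 0.865 in treated cells, so every lenvatinib library lay below every untreated one. The mean went from 2.06 ± 0.209 to 1.03 ± 0.209 CPM (SD, n = 3), a log2 fold change of -1.01 ± 0.23 with a 95% interval from -1.48 to -0.55 (edgeR quasi-likelihood, adjusted p = 0.000628). This is 2.01-fold lower, and 1.93% of all tested rows had a more negative log2 fold change. With a total of 250 counts over 6 libraries, Irf7 was measured far less deeply than the other tested genes of the chain, whose rows held 404 to 4630 counts in a library. The Irf7 row overlaps the end of Phrf1, a gene on the opposite strand, by 45 bases. Whether counting used strand is unknown here. Phrf1 was at 82.04 ± 3.90 and 79.8 ± 2.73 CPM (adjusted p = 0.519). Reads of Phrf1 within the shared bases cannot be told apart from reads of Irf7.

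The promoters of the chain were read from the RefSeq table of build GRCm38.p6, in which all 9 genes were matched, as windows from 250 bases before to 50 bases after the start site. Each window was searched on both strands for the ISRE core, written here as GAAA followed by any 2 bases and a further GAAA, and for the GAS letters TTCNNNGAA, which read the same on both strands. The ISRE core occurred in 3.44% and the GAS letters in 8.3% of all 32851 windows. Counted by gene, the shares were 3.99% and 9.55% of all genes with a window. Among the 9 genes, 1 had an ISRE core (Stat2) and 3 had GAS letters (Ifnar1, Ifnar2 and Irf1). The window of Irf7 held neither in these letters. The sequences shown are those of Irf7, the gene that fell, then Stat2 and Irf1 as the members with a match to ISRE and to GAS, and the interferon-stimulated genes Isg15 and Ifitm3, which fell as well. Capitals mark the matches, and each sequence runs from 5′ to 3′ along its gene.
Irf7: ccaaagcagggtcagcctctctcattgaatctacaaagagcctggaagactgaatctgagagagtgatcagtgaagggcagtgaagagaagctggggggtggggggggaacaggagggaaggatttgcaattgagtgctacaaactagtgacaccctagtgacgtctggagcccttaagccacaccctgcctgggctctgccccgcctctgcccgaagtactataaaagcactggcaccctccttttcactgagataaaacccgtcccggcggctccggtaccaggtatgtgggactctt
Stat2: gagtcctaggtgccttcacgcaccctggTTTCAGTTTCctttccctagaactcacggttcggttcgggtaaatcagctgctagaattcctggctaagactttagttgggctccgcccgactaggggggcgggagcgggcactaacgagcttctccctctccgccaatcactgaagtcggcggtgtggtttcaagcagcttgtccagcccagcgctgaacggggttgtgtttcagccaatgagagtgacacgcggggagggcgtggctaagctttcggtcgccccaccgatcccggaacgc
Irf1: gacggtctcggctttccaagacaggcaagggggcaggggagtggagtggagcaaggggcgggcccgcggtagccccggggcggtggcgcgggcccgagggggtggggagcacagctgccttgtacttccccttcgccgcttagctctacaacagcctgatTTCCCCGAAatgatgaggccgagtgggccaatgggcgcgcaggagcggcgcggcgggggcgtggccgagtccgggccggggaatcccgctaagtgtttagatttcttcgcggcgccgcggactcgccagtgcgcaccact
Isg15: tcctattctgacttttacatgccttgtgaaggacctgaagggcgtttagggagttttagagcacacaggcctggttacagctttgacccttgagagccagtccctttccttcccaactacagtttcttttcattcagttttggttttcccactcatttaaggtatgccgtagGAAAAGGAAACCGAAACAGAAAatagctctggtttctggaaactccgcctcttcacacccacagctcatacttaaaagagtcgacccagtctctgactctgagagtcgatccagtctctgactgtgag
Ifitm3: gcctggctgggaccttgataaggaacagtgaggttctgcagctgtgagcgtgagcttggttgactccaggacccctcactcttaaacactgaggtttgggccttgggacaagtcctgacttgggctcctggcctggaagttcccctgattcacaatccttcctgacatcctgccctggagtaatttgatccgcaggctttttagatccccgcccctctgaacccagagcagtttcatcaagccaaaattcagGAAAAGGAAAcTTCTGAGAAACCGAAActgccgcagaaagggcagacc
The windows are chr7:141266375-141266674 (minus strand) for Irf7, chr10:128270248-128270547 (plus strand) for Stat2, chr11:53769764-53770063 (plus strand) for Irf1, chr4:156200769-156201068 (minus strand) for Isg15 and chr7:141010695-141010994 (minus strand) for Ifitm3. In Stat2 the ISRE core lies on the minus strand, 222 to 213 bases before the start site. In Irf1 the GAS letters TTCCCCGAA lie 90 to 82 bases before it, and the other Irf1 window, from a second start site, held no match. Isg15 carries 3 ISRE cores that overlap each other, and Ifitm3 carries 2 just after its start site with a GAS match that overlaps the downstream core. These are matches of letters and not measured binding sites.

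Neither receptor chain passed the test. Ifnar1, which holds TYK2, was at 59.2, 58.7 and 59.2 CPM in the untreated and 61.9, 62.0 and 61.1 CPM in the lenvatinib libraries. Every lenvatinib library was above every untreated one, yet the log2 fold change was 0.06 ± 0.04 (95% interval -0.02 to 0.14, edgeR adjusted p = 0.258). Ifnar2, the chain that holds JAK1, was at 17.4, 20.1 and 16.8 CPM untreated and 16.4, 16.5 and 16.6 CPM with lenvatinib. All 3 lenvatinib libraries were below the untreated ones, by little except for the second untreated library, with a log2 fold change of -0.13 ± 0.07 (95% interval -0.28 to 0.02, adjusted p = 0.197). Without the second untreated library it was -0.05 (adjusted p = 0.711). Groups did not overlap in 40.1% of all tested rows (19.6% with the lenvatinib libraries higher, as in Ifnar1, and 20.5% with them lower, as in Ifnar2 and Irf7). The 2 genes lie on chromosome 16, at 91282126 to 91304329 and 91169671 to 91202477.

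Within each library the counts of Ifnar1 were divided by those of Ifnar2, which removes any effect of scaling. The ratio was 3.41, 2.92 and 3.53 in the untreated and 3.77, 3.75 and 3.69 in the lenvatinib libraries, again without overlap. The mean log2 ratio was 0.19 higher with lenvatinib (exact two-sided permutation test, p = 0.1, adjusted p = 0.15 over 3 ratios). With 3 libraries against 3 this test cannot go below 0.1. Without the second untreated library the log2 difference was 0.11.

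The kinase transcripts differed little between the groups. Jak1, the kinase shared with other cytokine receptors, was the most abundant of the chain, with 148.9, 144.0 and 152.8 CPM untreated and 143.0, 145.2 and 143.05 CPM with lenvatinib. The groups overlapped, and the log2 fold change was -0.05 ± 0.03 (95% interval -0.11 to 0.02, adjusted p = 0.269). Tyk2 was at 38.1, 35.6 and 37.9 CPM untreated and 34.4, 36.3 and 34.6 CPM with lenvatinib. Here the second untreated library fell within the lenvatinib range, and the log2 fold change was -0.09 ± 0.05 (95% interval -0.19 to 0.02, adjusted p = 0.222). The count ratio of Jak1 to Tyk2 was 4.00 ± 0.0782 untreated and 4.10 ± 0.084 with lenvatinib (SD, n = 3; exact permutation p = 0.3, adjusted p = 0.3).

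Of the ISGF3 subunits, Stat2 could be tested. It was at 28.5, 31.5 and 28.02 CPM untreated and 25.5, 28.2 and 28.95 CPM with lenvatinib, with overlapping groups and a log2 fold change of -0.09 ± 0.06 (95% interval -0.21 to 0.03, adjusted p = 0.307). The row of Irf9, which encodes the DNA-binding subunit, held 2, 0 and 0 counts without the drug and 0, 0 and 2 counts with it. All 6 values are under the floor of 3 counts, which corresponds to 0.0927 to 0.123 CPM, so no fold change is given and no ratio of Stat2 to Irf9 could be formed. On the deposited map Irf9, with a feature length of 5386 bases, shares 123 bases with Rnf31 on the same strand. Whether reads in that shared stretch were left out of both rows was not tested, and a row near 0 in this table is not read as an absent transcript.

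Among the interferon regulatory factors, Irf1 and Irf3 stood apart from Irf7. Irf1, an early-response factor, was at 27.8, 27.3 and 27.4 CPM untreated and 27.8, 27.3 and 30.7 CPM with lenvatinib. The third lenvatinib library was the highest and the other values lay together, with a log2 fold change of 0.06 ± 0.06 (95% interval -0.06 to 0.18, adjusted p = 0.481). Irf3, the factor that responds first to sensors and is made constantly, was at 28.9, 30.1 and 28.5 CPM untreated and 29.9, 28.6 and 29.7 CPM with lenvatinib. Its log2 fold change was 0.01 ± 0.05 (95% interval -0.10 to 0.12, adjusted p = 0.919). Irf3 lies at chromosome 7 from 44647072 to 44652272 and shares 1065 bases with Bcl2l12 on the opposite strand. The count ratio of Irf7 to Irf3 was 0.0637, 0.0689 and 0.0792 untreated and 0.0324, 0.0444 and 0.0292 with lenvatinib. The groups did not overlap, and the mean log2 ratio differed by -1.02, lenvatinib minus untreated (exact permutation p = 0.1, the smallest possible, adjusted p = 0.15).

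**Figure D2:**
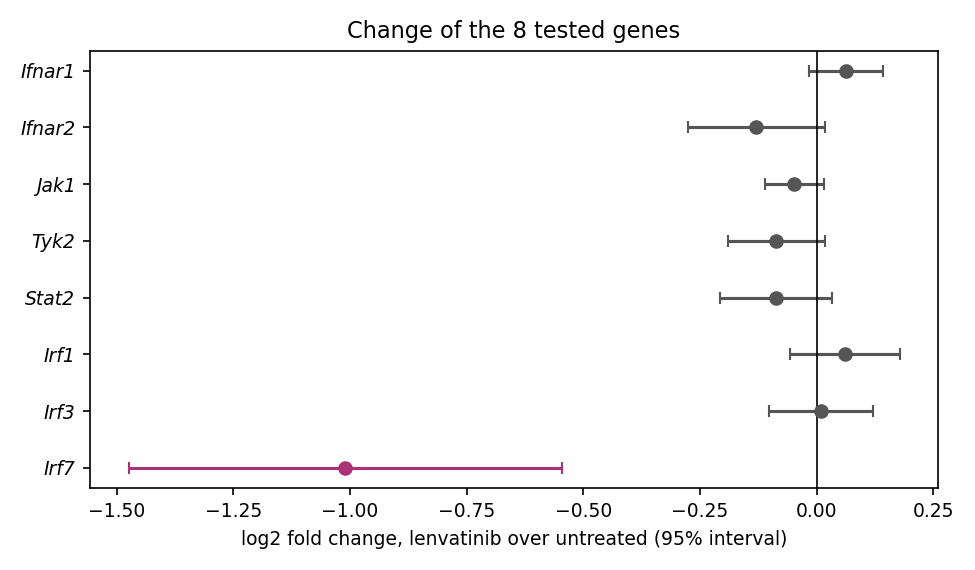
Log2 fold change, lenvatinib over untreated, of the 8 tested genes (points) with 95% intervals of the edgeR fit (bars). The interval of Irf7 runs from -1.48 to -0.55, and those of the other 7 genes include 0 and stay between -0.28 and 0.18.

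A p above the threshold does not show that the 7 genes were equal in both groups, but their intervals bound the size of any change. Taken gene by gene, the intervals reached at most a 1.211-fold decrease (Ifnar2) and a 1.131-fold increase (Irf1).

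Levels of different genes were compared per kilobase of the deposited feature length. In untreated cells the order was Jak1 at 19.1 ± 0.566 CPM per kilobase, Irf3 at 8.47 ± 0.242, Ifnar1 at 8.19 ± 0.0441, Irf1 at 6.84 ± 0.0616, Ifnar2 at 5.41 ± 0.529, Tyk2 at 5.41 ± 0.205, Stat2 at 4.93 ± 0.322 and Irf7 at 0.546 ± 0.0554 CPM per kilobase (SD, n = 3). The ranges of Ifnar2 and Tyk2, and of Tyk2 and Stat2, overlapped, while at each other step the libraries of the neighbouring genes did not. With lenvatinib Ifnar1 (8.55 ± 0.0707 CPM per kilobase) and Irf3 (8.53 ± 0.201) overlapped, and Irf7 was last of the tested genes at 0.274 ± 0.0554. Irf7 thus stood 9.03-fold below Stat2, the next gene up, without lenvatinib and 16.9-fold below it with lenvatinib. The order of Ifnar1 depends on its length: the deposited 7211 bases are 121% of the 5940 exon bases that GENCODE M21 gives, and the other genes of the chain had 100 to 108%.

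**Figure D3:**
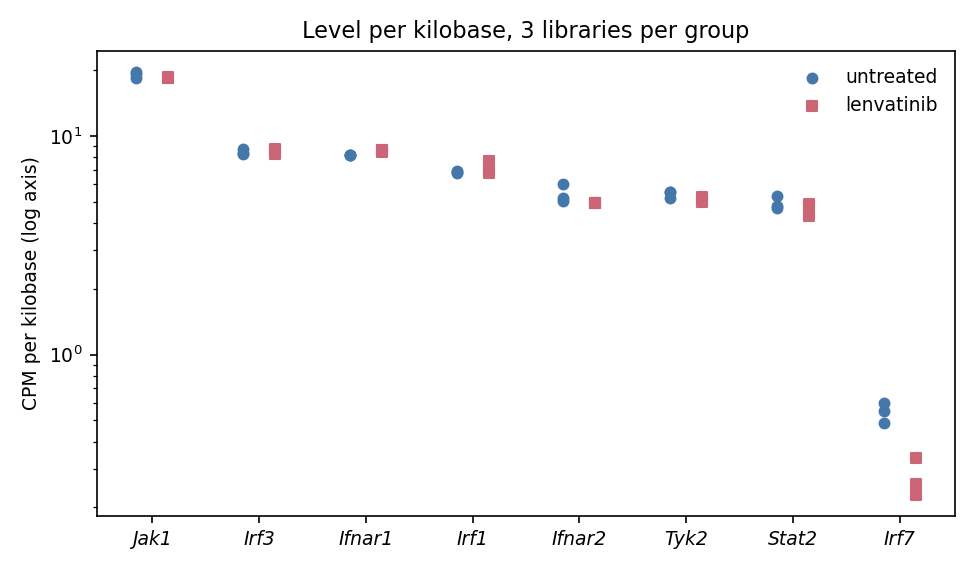
Level of each tested gene in CPM per kilobase of feature length (log axis) in 3 untreated (circles) and 3 lenvatinib libraries (squares), ordered by the untreated mean. Jak1 is at the top near 19.1 and Irf7 at the bottom, at 0.546 without and 0.274 with lenvatinib.

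The genes whose pattern over the 6 libraries was most like that of Irf7 were sought by the Euclidean distance between centred log2 CPM values, among 9839 named genes of at least 5 CPM. The nearest were Atp6v1c2, a subunit of the proton pump (distance 0.282), Serping1, the inhibitor of complement C1 (0.3), and Dsg3, a desmosomal cadherin (0.34). Serping1 went from 10.9 ± 0.848 to 5.33 ± 0.842 CPM and Atp6v1c2 from 11.2 ± 1.04 to 5.65 ± 0.402 CPM. With 2 groups of 3 libraries such likeness mostly reflects the difference between the groups, and it is a description.

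The rest of the pathway was followed in lists ordered by role. No interferon gene was tested. Of 21 interferon ligand rows, 16 held 0 counts in every library, and Ifnb1, the main interferon of non-immune cells, held 1 count in the second lenvatinib library. The highest was Ifnz with 11, 7 and 15 counts untreated and 3, 4 and 4 counts with lenvatinib. Without the second untreated or the second lenvatinib library it entered the test and was called lower (log2 fold change -1.76 and -1.70). Without lenvatinib replicate 1 or 3 it was tested and not called (-1.50 and -1.49), and no ligand was called with DESeq2 or with no filter on low counts, with 5 tested in each. Ifnz was singled out after its values were seen.

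Among the other receptors, kinases and STATs, 1 of 9 tested genes rose and 1 fell (22.2% called beside 28.2% of all rows, median log2 fold change 0.03). Stat3, the STAT of IL-6 type cytokines, fell from 226 ± 2.65 to 191 ± 3.39 CPM (-0.24 ± 0.03, adjusted p = 4.42e-09). Ifngr2, a chain of the interferon gamma receptor, was at 38.9 ± 2.07 and 42.6 ± 1.69 CPM (0.13 ± 0.05, adjusted p = 0.0455). That call was lost with DESeq2 (adjusted p = 0.162) and without untreated replicate 1 (0.245) or 3 (0.0806) or lenvatinib replicate 1 (0.202) or 3 (0.0662). In the list of other IRF genes Irf2bpl, a member of the family of IRF2-binding proteins, fell from 149 ± 1.75 to 133 ± 1.89 CPM (-0.17 ± 0.03, adjusted p = 2.75e-05). Irf2, a repressor that competes with IRF1 for DNA, was at 16.2 ± 1.27 and 14.4 ± 0.594 CPM and did not pass (adjusted p = 0.101).

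Sensors and adaptors act upstream of Irf3 and Irf7, and of their 16 tested genes 6 fell and 1 rose (43.8% called beside 28.2% of all rows, median log2 fold change -0.06 beside 0.003). Sting1, the adaptor of DNA sensing, fell from 13.6 ± 0.857 to 6.80 ± 0.293 CPM (-0.999 ± 0.091, adjusted p = 8.66e-12). Its counts were 337, 366 and 398 untreated and 160, 169 and 227 with lenvatinib. The RNA sensor genes Ddx58 (-0.32 ± 0.08, adjusted p = 0.00196) and Ifih1 (-0.58 ± 0.17, adjusted p = 0.00586) fell, as did Myd88, the adaptor of Toll-like receptors (-0.34 ± 0.08, adjusted p = 0.0012). Traf3, a ubiquitin ligase shared by these routes, rose by 0.19. Without the first untreated library 4 of these genes were called in place of 7, and Ifih1 was not among them (adjusted p = 0.0995). Mavs, Ticam1 and Tbk1, which link the sensors to IRF3, did not pass (adjusted p = 0.431, 0.856 and 0.612).

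Of 13 tested negative regulators 4 fell and 1 rose (38.5% called beside 28.2% of all rows, median -0.06). Socs3, an inhibitor of JAK kinases, fell from 34.8 ± 1.24 to 27.7 ± 0.468 CPM (-0.33 ± 0.05, adjusted p = 5.95e-06). Fbxw7, a subunit of a ubiquitin ligase, and the SUMO ligase genes Pias2 and Pias1 fell by 0.21, 0.18 and 0.19. Ptpn11, which encodes the phosphatase SHP2, rose by 0.08. Without the third untreated or the first lenvatinib library 3 genes were called in place of 5, the calls of Pias1 (adjusted p = 0.0949 and 0.0513) and Ptpn11 (0.0686 and 0.081) being lost. Ptpn11 was also lost without the second lenvatinib library (0.0584) and Pias1 without the third (0.0875). Usp18, which is induced by interferon and blocks IFNAR2, had too few counts for a test, with 10, 8 and 8 counts untreated and 1, 0 and 0 with lenvatinib. It was singled out after its values were seen.

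Targets of the pathway were read last. Of 35 tested interferon-stimulated genes 20 fell and 2 rose, so that 57.1% were called lower beside 14.9% of all rows, and the median log2 fold change was -0.35 beside 0.003. The remaining 10 genes of this list of 45 had too few counts. Ifitm3, a membrane protein that blocks virus entry, was the most abundant of those that fell, from 155 ± 3.65 to 66.1 ± 2.78 CPM (-1.23 ± 0.04, adjusted p = 5.59e-28). Lgals3bp, a secreted glycoprotein, fell from 33.4 ± 3.37 to 17.5 ± 0.133 CPM, Bst2, which tethers virus particles to the cell, from 10.9 ± 1.07 to 6.14 ± 0.944 CPM, and Ifitm1 from 2.43 ± 0.0609 to 0.809 ± 0.125 CPM. The 2 that rose were Samhd1, a nucleotide hydrolase (0.23 ± 0.04), and Lgals9, a galectin (0.27 ± 0.06). In 9 of the 20 fallen targets the decrease was larger than that of Irf7. Genes of this kind were already known to be lower in these libraries when the chain was chosen, so the count is not independent evidence.

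**Figure D4:**
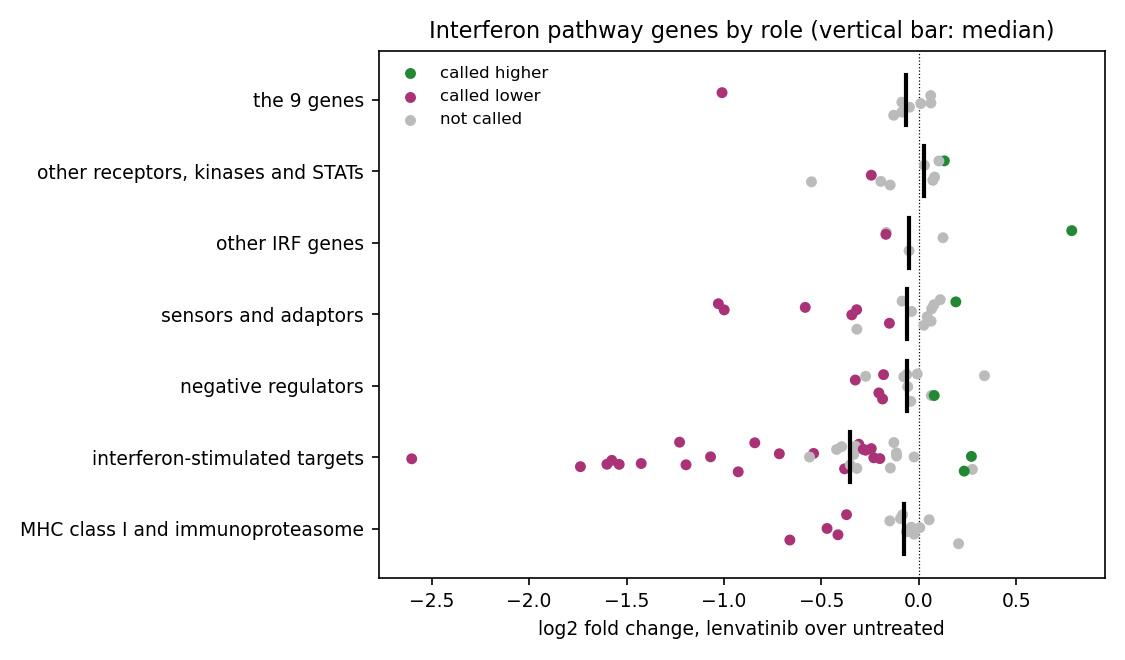
Log2 fold change, lenvatinib over untreated, of the tested genes of the chain and of 6 pathway lists (points, spread vertically at random), coloured by call, with the median of each as a vertical bar. The chain lies near 0 but for Irf7 at -1.01, and the interferon-stimulated targets reach from -2.60 to 0.28 with a median of -0.35.

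Some of the classical ISGF3 targets varied among the untreated libraries. Ifit1 had 49, 101 and 48 counts untreated and 3, 11 and 19 with lenvatinib, and Ifit3 had 72, 132 and 74 untreated and 20, 28 and 47 with lenvatinib. In both the second untreated library was the highest of its group, as it was for Stat2, Ifnar2 and Irf3. These are 3 of the 8 tested genes of the chain (37.5%), near the share of all tested rows. The second untreated library was the highest of its group in 54.3% of the 35 tested targets and in 34.6% of all tested rows. Among the 20 targets that fell, the first and the second untreated library were each the highest in 9. For Irf7 the highest untreated library was the third. Without the second untreated library 19 targets were called lower and 2 higher. The call of Ifit1 was lost without the second lenvatinib library (adjusted p = 0.0709). Ifit1, Ifit3 and Isg15 were singled out after their values were seen.

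Of 14 tested genes of antigen presentation by MHC class I, 4 fell and none rose. The 28.6% called lies near the 28.2% of all rows called in either direction. All of these calls were lower, and 14.9% of all rows were called lower. The median log2 fold change of the list was -0.07 beside 0.003 over all tested rows. B2m, the invariant light chain, fell from 234 ± 2.68 to 175 ± 4.25 CPM (-0.42 ± 0.03, adjusted p = 3.09e-15). The heavy chain genes H2-T23 (-0.66), H2-K1 (-0.47) and H2-D1 (-0.37) fell with it. The heavy chain genes are related in sequence, and how reads that match more than 1 of them were counted is not known here. Their values are not treated as independent. Among the 10 genes not called were the peptide transporter Tap1 and the regulator Nlrc5 (adjusted p = 0.916 and 0.968), which were singled out.

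The promoters of the targets were searched in the same way. Of the 20 fallen targets 16 had a window, and 9 of these (56.2%) held an ISRE core. Among the tested targets that were not called, 6 of 12 with a window held one, and among all genes with a window 3.99% did. GAS letters were found in 4 of the 16 fallen and 6 of the 12 uncalled targets, beside 9.55% of all genes with a window. The differences between fallen and uncalled targets were not tested. Among the named rows called lower with a window, 5.21% held an ISRE core and 9.28% GAS letters. Among the named rows tested with a window the shares were 3.5% and 8.05%.

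Markers of other cell types were examined because immune cells express Irf7 and interferon-stimulated genes. Of 12 leukocyte markers 5 were tested, and Cd53 (-4.27 ± 0.21) and Cd14 (-0.54 ± 0.13) fell (40% called beside 28.2% of all rows). The other 3 were not called. The median log2 fold change of the 5 was 0.10 and the highest 0.47, so the tested markers did not all change in the same direction. The summed level of the list was 13.99 to 15.7 CPM in untreated and 6.37 to 6.96 CPM in lenvatinib libraries, and without Cd53 it was 6.70 to 7.72 and 5.93 to 6.55 CPM. The defining leukocyte marker Ptprc had 2 counts in the first untreated library and 0 in the other 5, and Adgre1 and Tyrobp had 0 in all 6. Of 5 tested fibroblast markers 2 rose and 2 fell, and of 10 muscle markers 5 rose and 3 fell (80% called in each list beside 28.2% of all rows). Of 6 endothelial markers 1, Tek, was tested and did not pass. The part of these shifts in the values of Irf7 and the targets was not tested.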

How the data were processed

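RNA-seq counts of 6 C2C12 libraries, 3 per group, were used as the authors deposited them: whole-number counts per gene row, not normalized. Per the labels' protocols reads were aligned with HISAT2 2.0.1, while HTSeq 0.6.1 and mm10 are named, per the submitters' processing notes. The sources used here do not give the kit, filters or strand setting. The deposited positions differ from mm10 (2.88% of 51811 identifiers shared with GENCODE M21 have the same start and end), so they are printed as deposited. Levels per kilobase used the feature lengths, in bases, that the authors deposited beside the counts.

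Columns were matched to samples by title. Computed here were edgeR 4.0.16 fits in R 4.3.3 (TMM, filterByExpr with minimum count 10 and minimum total 15, robust glmQLFit, glmQLFTest), which kept 14989 rows. The fit was tested on simulated data. Ratios used exact permutation tests (scipy 1.17.1). The SE came from the F statistic. In replicates of a group the chi-square per degree of freedom was 2.78 to 5.6, above sampling noise. Floors of 3 counts cover counting error only.

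Up to 4 called genes per list and direction with the smallest p were named. Other genes were named outside this rule, and only some of them are marked as singled out. The 9 genes and the lists were chosen with earlier results of these data known. Alternatives were other scalings (RLE, upper quartile), filters, tests (DESeq2 1.42.0, limma-voom from limma 3.58.1), a stricter threshold, a replicate block, leaving out rows wider than the gene, and leaving out each library. Irf8 was not analysed here, and some genes of the lists are not reported here.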

Additional observations from a re-analysis of the deposited data

How the results depend on the processing

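Irf7 was called lower under every alternative in which it was tested, with a log2 fold change of -1.172 to -0.881 when 1 library was left out and an adjusted p of at most 0.0103 (DESeq2) elsewhere. At a minimum of 5 CPM in 3 libraries it was not tested, so 0 of the 7 members tested were called. There 1 of 4 tested other IRF genes was called and 1 of 7 other receptors, kinases and STATs. Of the interferon-stimulated targets 13 of 17 tested were called, beside 3672 of 10921 rows in all. The other 7 genes passed under none of the 14 refits; Irf3 ranged from -0.006 to 0.033 with 1 library left out, and its sign turned without untreated replicate 3 (-0.006) and lenvatinib replicate 1 (-0.0).

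The call for other receptors, kinases and STATs was 1 in place of 2 with DESeq2, limma-voom, the replicate block or an adjusted p under 0.01. DESeq2 called 4 sensors and adaptors in place of 7, and the threshold of 0.01 left 3 negative regulators in place of 5. With 1 library left out, calls ranged from 1 to 2 for other receptors, kinases and STATs, 0 to 1 for ligands, 4 to 6 for sensors and adaptors and 3 to 5 for negative regulators. Rows called in all ranged from 3028 (DESeq2) to 4276 (upper quartile).

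Same-numbered libraries did not deviate together (r = 0.022, -0.078 and -0.004 over 10002 genes), so the replicate number is not shown to pair samples. With the replicate block 4134 rows and 1 member were called, and the block changed no other call count by over 1.5 times beside the 1 above. With 250 counts in all, the size of the change in Irf7 is limited by depth.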
